A study of Mus musculus with 8 samples.

Results

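The homeodomain transcription factors Six2, Six4 and Six5 and their protein partners Eya1, Eya2, Eya3 and Eya4 were examined in mouse nephron progenitor cells with and without conditional loss of Hdac1 and Hdac2, which encode class I histone deacetylases. The 7 genes were found on the arrays by the transcript accession of each probe, and all 8 probes that map to them were kept, of 55681 probes on the array and 20887 genes named there. Six2 had 2 probes, here called brighter and dimmer, and every other gene had 1. Mutant cells were taken from embryos that carried the Six2CreEGFP transgene and had both deacetylase genes floxed (HDAC1&2 f/f). Wildtype cells carried the same transgene with unfloxed alleles (HDAC1&2 +/+). Both groups were C57BL/6 embryos at embryonic day 15.5, and each was hybridised as 4 pools of EGFP+ cells collected by fluorescence-activated sorting. Each pool was read in Cy5 against RNA of wildtype pool 1 in Cy3.

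Six-family proteins bind DNA through a homeodomain and recruit Eya proteins, which bring transcriptional activation and a phosphatase domain to the complex, while Dach and Groucho-type (Tle) proteins can turn the complex towards repression. In the developing kidney Six2 keeps cap mesenchyme progenitors from differentiating too early, and Eya1 is needed for the metanephric mesenchyme to form and for its progenitors to persist. The sort limits what can be seen of Six2, because EGFP comes from a Six2-driven transgene and only cells with that transgene active were collected. In pooled cells, fewer cells that express a gene and less RNA per cell cannot be told apart.

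Promoter windows of 250 bases before to 50 bases after a start site are shown for Six2, whose regulatory DNA also drives the sorted marker, and for Six4 and Eya4, the genes whose groups did not overlap on the arrays. They are RefSeq sequences of build GRCm38.p6, all on the minus strand and written 5′ to 3′ along the gene. Capitals mark a match to the MEF3 core TCAGGTT, a Six-binding motif known from muscle genes, or to the CCAAT box (CCAAT), each searched on both strands. The motifs do not overlap each other in these windows. The Six2 window lies at chr17:85688205-85688504, the second of the Six4 windows at chr12:73113196-73113495 and the more upstream Eya4 window at chr10:23349894-23350193.
Six2: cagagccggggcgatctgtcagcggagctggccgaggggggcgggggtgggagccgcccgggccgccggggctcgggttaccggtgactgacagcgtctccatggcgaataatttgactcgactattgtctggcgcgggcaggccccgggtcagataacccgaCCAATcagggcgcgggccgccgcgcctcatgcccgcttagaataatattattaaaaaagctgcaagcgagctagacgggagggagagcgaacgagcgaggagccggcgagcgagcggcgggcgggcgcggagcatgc
Six4: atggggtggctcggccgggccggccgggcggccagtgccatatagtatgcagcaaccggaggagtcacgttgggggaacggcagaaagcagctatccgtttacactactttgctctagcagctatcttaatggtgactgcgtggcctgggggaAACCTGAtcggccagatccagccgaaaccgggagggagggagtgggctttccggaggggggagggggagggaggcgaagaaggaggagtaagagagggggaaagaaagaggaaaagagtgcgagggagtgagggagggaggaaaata
Eya4: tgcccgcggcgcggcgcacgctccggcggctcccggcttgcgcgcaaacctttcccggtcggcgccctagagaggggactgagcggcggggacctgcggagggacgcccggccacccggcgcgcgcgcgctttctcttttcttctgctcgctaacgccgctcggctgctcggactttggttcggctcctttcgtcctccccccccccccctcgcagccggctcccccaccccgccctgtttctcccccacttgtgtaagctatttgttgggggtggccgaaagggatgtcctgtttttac

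The Six2 window held a CCAAT match that begins at offset -87 from the start site, and 37 CpG pairs with 67.3% GC. The Six4 window shown held a MEF3 core match, read on the opposite strand as AACCTGA and beginning at offset -97. The other Six4 window, chr12:73113376-73113675, had no MEF3 core match and a CCAAT match at offset -73. Of the 7 windows of 5 member genes, 1 held the MEF3 core and 2 the CCAAT box. The Eya4 window had 36 CpG pairs, 69.3% GC and neither motif. Over all 32851 windows of the table, 4.07% held the MEF3 core and 37.4% the CCAAT box, and the median window had 7 CpG pairs. These matches describe the letters of the windows only. Windows of Eya1 and Eya2 were not analysed here.

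Values are log2 ratios of a pool over wildtype pool 1, after background correction and loess normalization, and differences are mutant minus wildtype. Within each group, pools 3 and 4 lay as close together as arrays that carried one RNA, so their mean was counted as 1 sample and 3 mutant samples were compared with 3 wildtype samples. The study design calls the pools biological replicates, but the labels do not say whether pools share embryos, so p-values measure only the spread between these samples. All 8 probes were well above background in both dyes on all 8 arrays, and none was saturated. Eya4, Six4 and the dimmer Six2 probe were the dimmest, with lowest raw Cy5 signals of 507, 531 and 845, each on mutant pool 1. The other probes had lowest raw signals of 2559 or more. On 7 arrays 28150 to 33982 probes passed that limit in Cy5, while the wildtype 2 array had 48627 and stands apart. The Cy5 channel of mutant pool 1 differed from the other mutant pools by a median absolute deviation of 0.299 to 0.342 on the log2 scale, against 0.0604 to 0.137 among those pools. Several differences are also given without one or the other. Each genotype had a slide row of its own, and row and genotype therefore cannot be told apart.

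The deleted genes were checked first. Hdac1, a class I histone deacetylase, was read by 3 probes at 81.4%, 75.7% and 67.4% of the wildtype level, each lower in the mutant sample of 3 of 3 pairs. Hdac2, its close relative, was at 91.4% of wildtype and lower in 2 of 3 pairs. No probe of either gene passed the threshold in limma (adjusted p = 0.580, 0.376 and 0.425 for Hdac1 and 0.879 for Hdac2). Probe positions were not compared with the floxed exons, so these probes do not check the deletion. Of 14 cap mesenchyme markers, including the labelled marker Six2 and Eya1, all were measured. So were all listed markers of stroma, endothelium, ureteric bud, podocyte and proximal tubule, so passing this filter does not single out progenitors.

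None of the 8 Six-Eya probes passed an adjusted p of 0.05 in limma, where 8 of 30364 probes tested did (0.0263%), 4 higher and 4 lower in the mutants (0.0132% each). None passed with pool number as a block either, where 0.115% of all probes did, or with the 8 arrays as separate samples, where 0.837% did. Eya4 and Six4 read lowest in the mutants, at 70.0% and 78.4% of wildtype, and in both the mutant samples lay below all wildtype samples. Six2, Six5 and Eya2 had means between 87.7% and 92.9% of wildtype, and Eya1 and Eya3 means of 103% and 110%. The 95% intervals of all but Eya4 included no difference. By the mean, 6 probes were lower and 2 higher in the mutants, with a median difference of -0.15, against -0.0030 over all probes tested, of which 50.7% were below 0. The median size of the difference was 0.148 for the 8 probes and 0.115 for all.

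**Figure D1:**
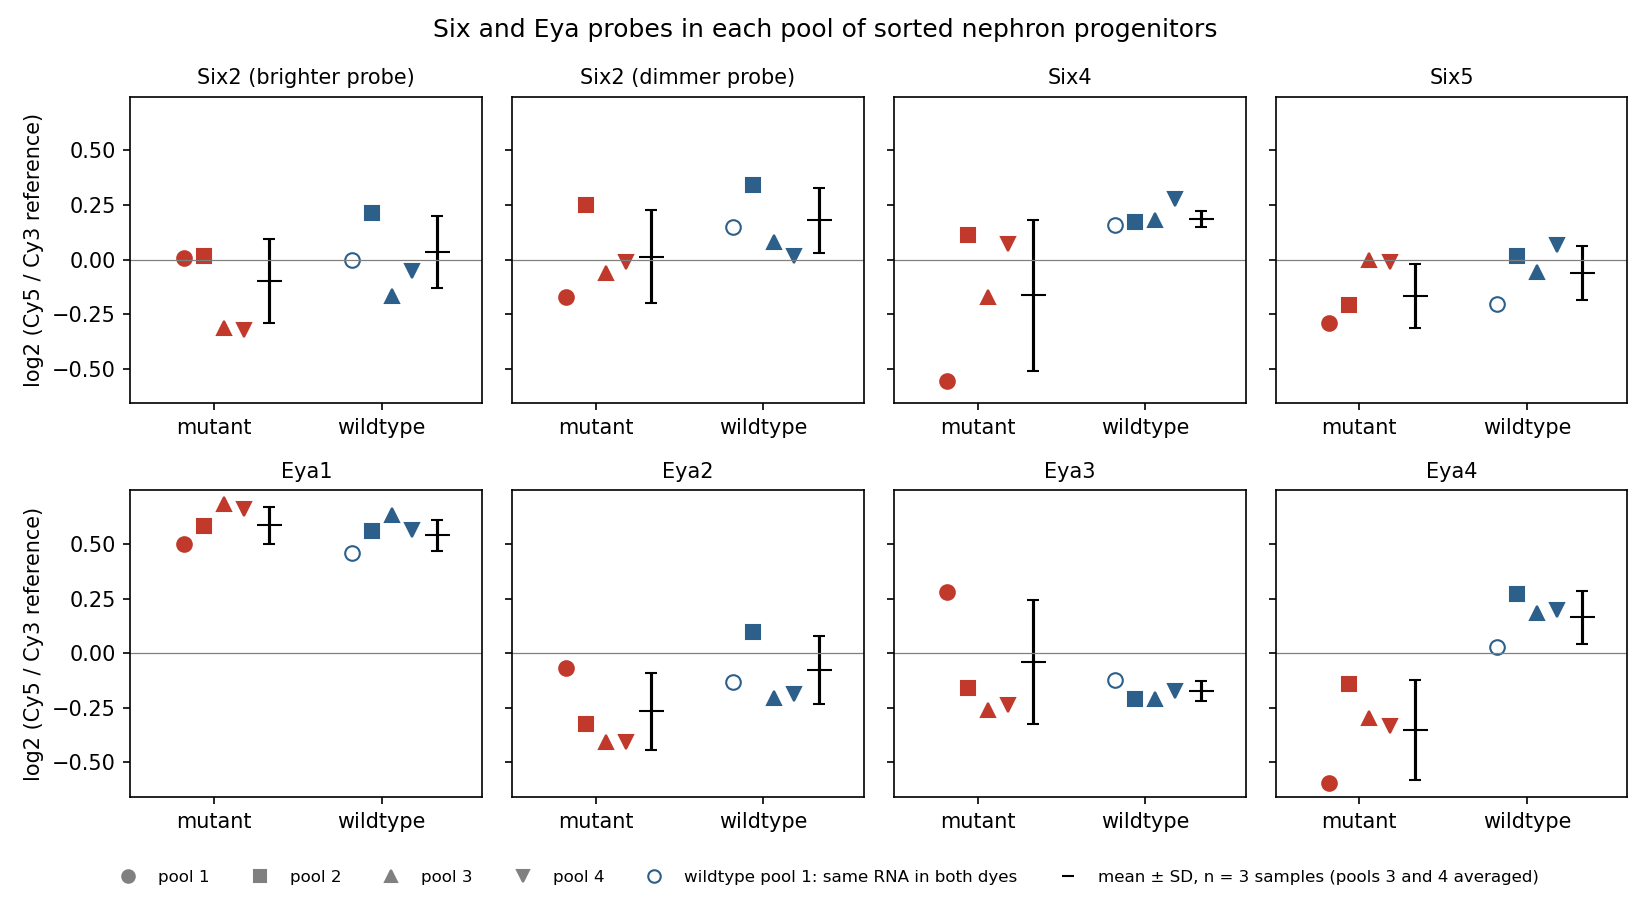
Log2 ratio of Cy5 over Cy3 for each Six-Eya probe in every pool, mutant pools left of wildtype pools, with the mean ± SD of the 3 samples per group in black and an open circle for wildtype pool 1, whose array carried one RNA in both dyes. Only for Six4 and Eya4 do all mutant samples lie below all wildtype samples, and Eya1 lies above 0 in every pool.

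Among Six-family genes, Six2 encodes the factor that holds progenitors undifferentiated. Its brighter probe read 0.01, 0.02, -0.31 and -0.32 in mutant pools 1 to 4, and -0.0013, 0.21, -0.17 and -0.05 in wildtype pools 1 to 4. The groups overlapped, and pools 3 and 4 were the lowest in both. The means were -0.10 ± 0.19 in mutant samples and 0.03 ± 0.16 in wildtype samples (SD, n = 3 each). The difference was -0.13 ± 0.14 (SE), which puts mutant cells at 91.3% of the wildtype level with a 95% interval of 72.7% to 115% (limma, adjusted p = 0.878). Six2 levels under 72.7% of wildtype lie outside that interval, a bound that holds for this normalization only. With spike-in centring the difference of this probe was -0.30 ± 0.24 (SE), where the median of all probes was -0.18. The dimmer probe read -0.17, 0.25, -0.06 and -0.01 in mutant pools and 0.15, 0.34, 0.08 and 0.01 in wildtype pools. It gave 89.2% of wildtype with an interval of 70.7% to 112% (difference -0.17 ± 0.14 SE, adjusted p = 0.873). The probes gave differences that lay closer together than their SE. By the dimmer probe the mutant sample was lower in all 3 pairs of equal pool number, by -0.32, -0.09 and -0.08, while by the brighter probe the pairs differed by 0.01, -0.19 and -0.21. With 1 array or merged sample left out, the brighter probe ranged from -0.20, without wildtype pools 3 and 4, to -0.021, without mutant pools 3 and 4. The dimmer probe ranged from -0.28, without mutant pool 2, to -0.07, without mutant pool 1.

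Six4, a relative of Six2 that acts beside other Six-family factors in muscle and kidney, read -0.56, 0.11, -0.17 and 0.07 in mutant pools and 0.16, 0.17, 0.18 and 0.28 in wildtype pools. Every mutant pool lay below every wildtype pool, but the wildtype pools lay close together and mutant pool 1 far below the other mutant pools. The means were -0.16 ± 0.35 in mutant samples and 0.19 ± 0.04 in wildtype samples (SD, n = 3 each). The difference was -0.35 ± 0.17 (SE), with an interval of -0.76 to 0.06 (adjusted p = 0.839), and the exact permutation test gave 0.1, the smallest p that 3 against 3 samples allow. Without mutant pool 1, the array that stood apart, the difference was -0.16, and without mutant pool 2 it was -0.49. From the Cy5 channel alone it was -0.13, where the median of all probes was 0.14. Without the wildtype 2 array it was -0.36.

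Six5, which in humans lies beside the myotonic dystrophy gene DMPK, read -0.29, -0.21, -0.0022 and -0.01 in mutant pools and -0.21, 0.02, -0.06 and 0.07 in wildtype pools. The groups overlapped. Its mutant level was 92.9% of wildtype with an interval of 76.4% to 113% (difference -0.11 ± 0.12 SE, adjusted p = 0.879), and the mutant sample was lower in all 3 pairs, by -0.09, -0.22 and -0.01. With 1 array or merged sample left out its difference ranged from -0.19, without mutant pools 3 and 4, to -0.04, without mutant pool 1.

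Among the Eya genes, Eya1 is the member with the best known role in the kidney, and its loss in humans causes branchio-oto-renal syndrome. It read 0.50, 0.59, 0.68 and 0.66 in mutant pools and 0.46, 0.56, 0.63 and 0.57 in wildtype pools. The groups overlapped almost fully, with means of 0.59 ± 0.09 in mutant samples and 0.54 ± 0.07 in wildtype samples (SD, n = 3 each). The difference of 0.05 ± 0.10 (SE) puts mutant cells at 103% of wildtype with an interval of 87.9% to 121% (adjusted p = 0.933), the narrowest of the 8 intervals. The mutant sample was higher in all 3 pairs, by 0.04, 0.03 and 0.07. All pools lay above 0, including wildtype pool 1, whose array carried one RNA in both dyes and still gave a Cy5 over Cy3 ratio of 0.46, or 1.38-fold. On that array 99.5% of the probes tested had a ratio closer to 0, so this probe read higher in Cy5 than in Cy3 with equal RNA, and only the difference between groups compares RNA.

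Eya2, a co-activator also found in muscle precursors and tumours, read -0.07, -0.32, -0.41 and -0.41 in mutant pools and -0.13, 0.10, -0.21 and -0.19 in wildtype pools. Mutant pools 2 to 4 lay below all wildtype pools, and mutant pool 1 lay above 3 of the 4 wildtype pools. The mutant level was 87.7% of wildtype with an interval of 70.5% to 109% (difference -0.19 ± 0.13 SE, adjusted p = 0.873). Without mutant pool 1 the difference was -0.29, and without the wildtype 2 array -0.10. Eya3, the most broadly expressed of the family, read 0.28, -0.16, -0.26 and -0.24 in mutant pools and -0.12, -0.21, -0.21 and -0.17 in wildtype pools. Only mutant pool 1 stood clear of the other pools. The difference was 0.13 ± 0.15 (SE, adjusted p = 0.881) at 110% of wildtype, with an interval of 85.5% to 140%, and without mutant pool 1 it was -0.031.

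Eya4, mutated in a human form of inherited deafness, showed the largest difference of the 8 probes. It read -0.59, -0.14, -0.30 and -0.33 in mutant pools and 0.03, 0.27, 0.19 and 0.20 in wildtype pools. Every mutant pool lay below every wildtype pool, with means of -0.35 ± 0.23 in mutant samples and 0.16 ± 0.12 in wildtype samples (SD, n = 3 each). The difference was -0.51 ± 0.14 (SE), a level 1.43-fold lower in the mutants, at 70.0% of wildtype with an interval of 55.5% to 88.2%. Its unadjusted p was 0.00815 and its adjusted p 0.499 in limma, so it did not pass the threshold, and the exact permutation test gave 0.1, the smallest possible. It was the only one of the 8 probes with an unadjusted p under 0.05, which 6.45% of all probes tested had (2.49% with the mutants lower). By size the difference ranked 794 of 30364 probes, 97.4% of which had a smaller one. The mutant sample was lower in all 3 pairs, by -0.62, -0.41 and -0.51. With pool number as a block the adjusted p was 0.171, and with all 8 arrays counted separately it was 0.0713. Without mutant pool 1 the difference was -0.39, and without the wildtype 2 array -0.46.

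**Figure D2:**
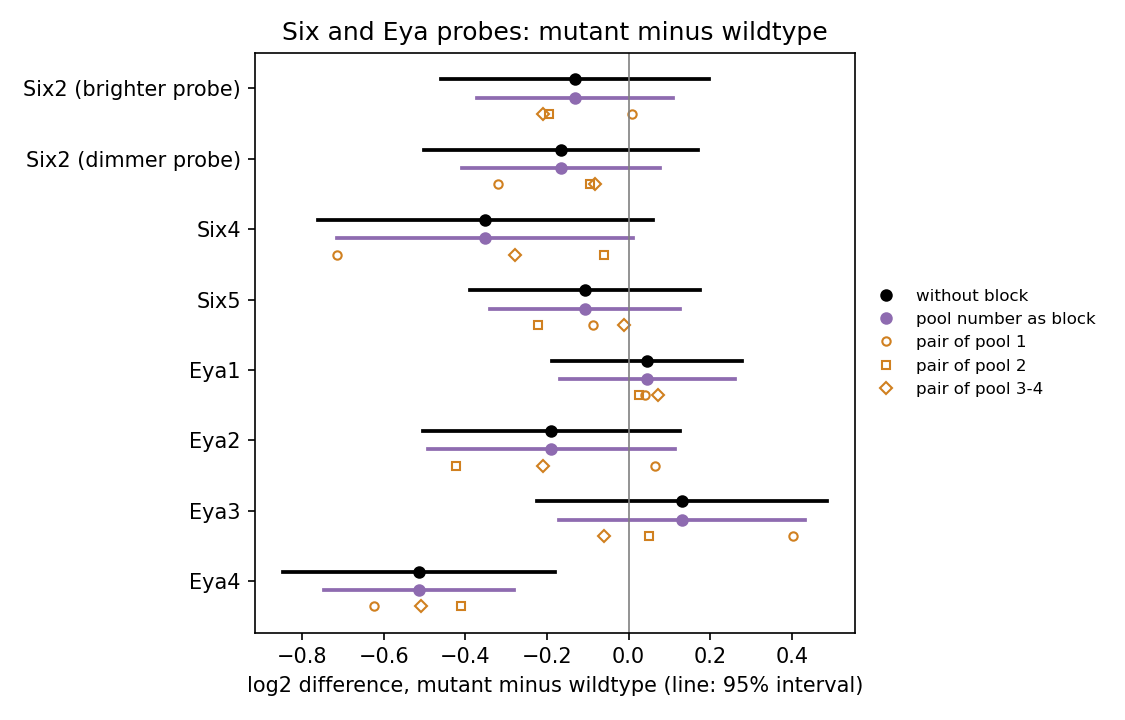
Log2 difference, mutant minus wildtype, of each Six-Eya probe with its 95% interval from limma (3 samples per group), without and with pool number as a block, and open symbols for the 3 pairs of equal pool number. The interval of Eya4, -0.85 to -0.18, is the only one without the block that lies wholly below 0.

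Lack of overlap alone was not rare on these arrays. The samples of the groups did not overlap, with the mutants lower, for 2 of the 8 probes, Six4 and Eya4, and for 5.6% of all probes with a value in every sample. With the mutants higher this held for none of the 8 and for 8.05% of all. The mutant sample was lower in all 3 pairs for 4 of the 8, namely the dimmer Six2 probe, Six4, Six5 and Eya4, against 16.7% of all probes. Since the genes were chosen with earlier results known, these shares are given as a description.

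**Figure D3:**
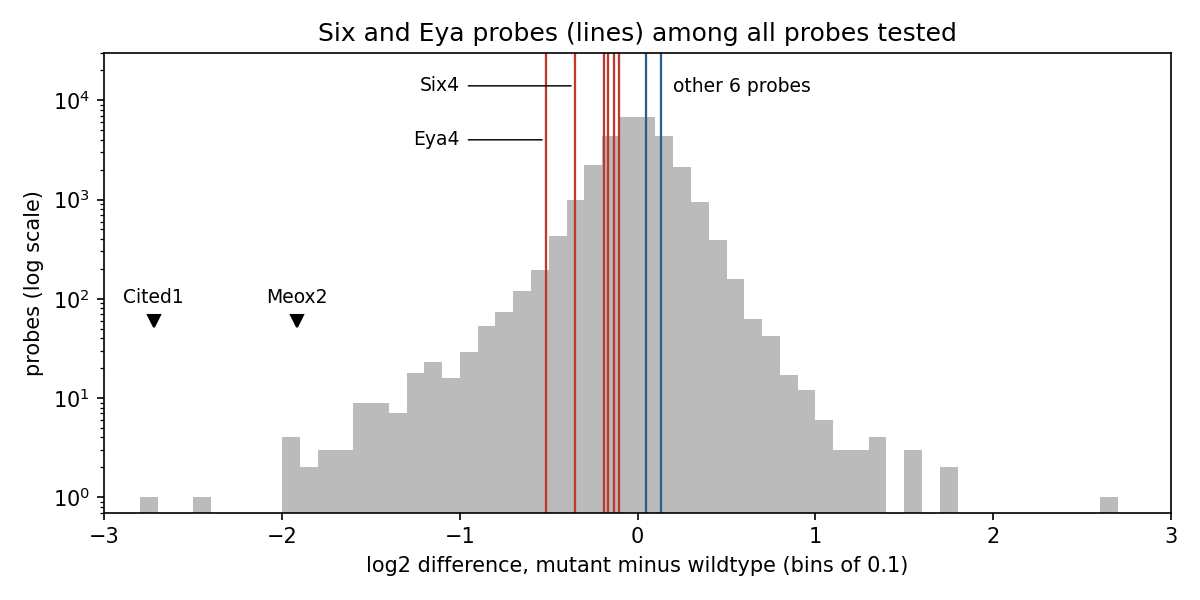
Histogram of the log2 difference, mutant minus wildtype, of all 30364 probes tested, with the number of probes on a log scale, lines at the 8 Six-Eya probes and arrowheads at Cited1 and Meox2. The remaining probes lie in the centre of the distribution, and Eya4 at -0.51 and Six4 at -0.35 lie on its lower flank, far from Cited1 at -2.72.

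The Cy3 channel held the same RNA on all arrays and was used to describe the technical spread of each probe. Levels of both dyes were taken after loess within arrays, a step that uses both dyes, so Cy3 levels also depend on Cy5. They were then quantile-normalized across arrays, including the wildtype 2 array that stands apart. For the brighter Six2 probe the SD was 0.176 in Cy5 and 0.0439 in Cy3 over 8 arrays, and 0.159 and 0.0334 without the wildtype 2 array, a choice made after seeing the data. For Six4 the SD was 0.248 in Cy5 and 0.213 in Cy3 over 8 arrays, but 0.228 and 0.0617 without wildtype 2, whose Cy3 level was far below the others. For Eya4 it was 0.294 and 0.144 over 8 arrays, and 0.314 and 0.0784 without wildtype 2. Eya1 had nearly equal SDs in both dyes, 0.0846 and 0.0841 over 8 arrays and 0.0709 and 0.0657 without wildtype 2. The Cy5 spread holds both genotypes and counts pools 3 and 4 separately, so it describes the arrays and is no test of pools or genotype.

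**Figure D4:**
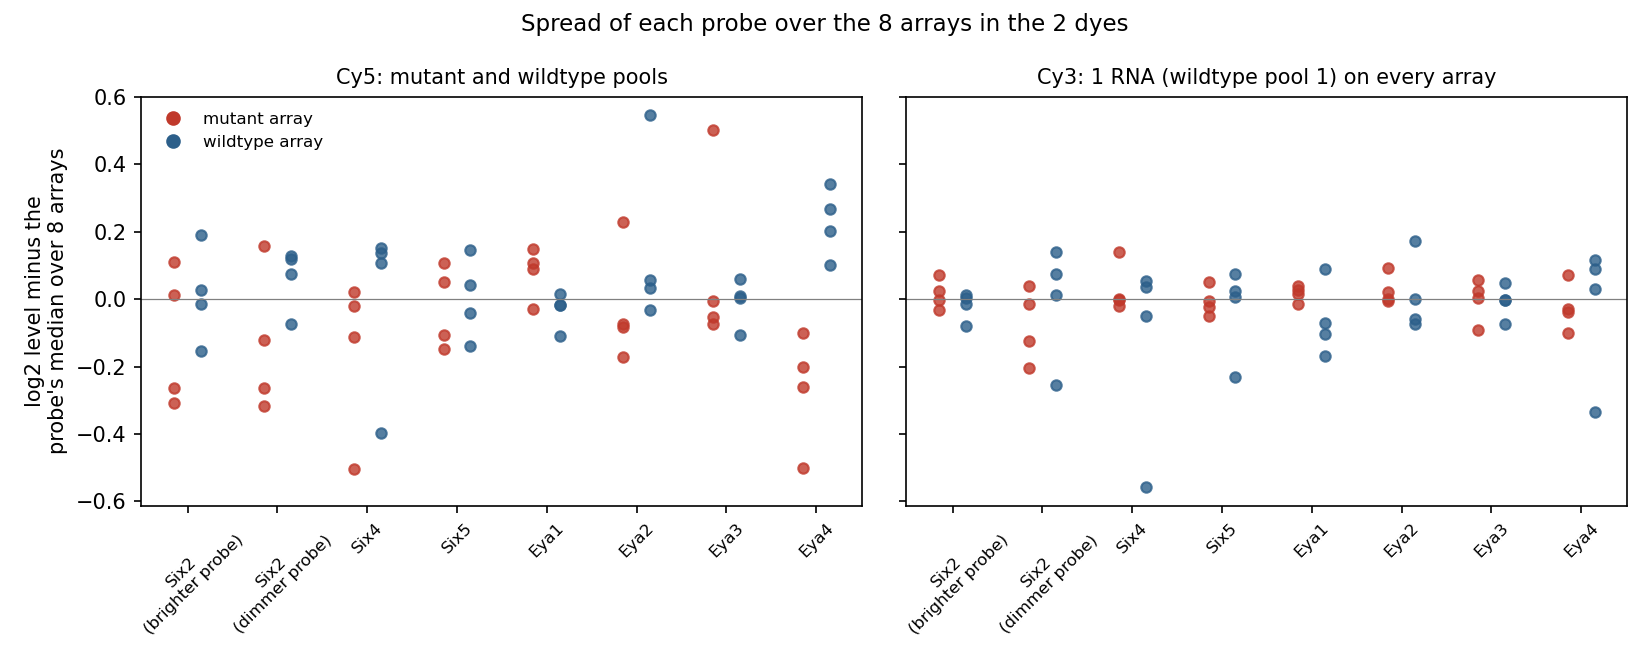
Log2 level of each Six-Eya probe on the 8 arrays, minus that probe's median, in Cy5 (the pools) and in Cy3 (wildtype pool 1 RNA on every array). Levels were quantile-normalized across arrays. Cy5 spreads far wider than Cy3 for the brighter Six2 probe, and about as wide for Eya1.

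Proteins that bind or modulate Six-Eya complexes form the next layer of the network. Of 15 such partners measured, none passed the test, 4 had lower and 11 higher means in the mutants, and the list's median difference was 0.10, against 0.0024 over the 14989 genes with a symbol. The brightest were the short Groucho-family co-regulator Tle5 at 0.10 ± 0.10, the histone variant H2ax, whose tyrosine phosphate Eya removes, at 0.04 ± 0.13 and the G protein subunit Gnai2 at 0.34 ± 0.29 (SE). A further pair was singled out after their values were seen, Dach1, the Six-Eya co-repressor, at -0.19 ± 0.15 and its relative Dach2 at 0.67 ± 0.26 (adjusted p = 0.873 and 0.737). Of 10 transcription factors that act upstream in the metanephric mesenchyme, none passed the test either, with 7 lower and 3 higher means and a median of -0.16. The brightest were Wt1, the Wilms tumour factor, at -0.37 ± 0.13 (adjusted p = 0.641), Foxc2 at -0.16 ± 0.12 and the homeobox gene Hoxa11 at -0.16 ± 0.12.

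Among these lists, chosen with earlier results known, only genes known as targets of Six2 or Eya1 in nephron progenitors held a call. Of 12 measured, 1 fell and none rose, with 8 lower and 4 higher means and a median of -0.32. Over all 14989 genes with a symbol, 3 passed as lower and 3 as higher. Cited1, a co-regulator of the least committed progenitors, fell by 2.72 on the log2 scale, with means of -2.81 ± 0.13 in mutant samples and -0.09 ± 0.19 in wildtype samples (SD, n = 3 each; limma adjusted p = 0.00355). Its call was lost without wildtype pool 1 (adjusted p = 0.0590) and with a trended, robust variance model (adjusted p = 0.764). With pool number as a block, the homeobox gene Meox2 also fell, with a difference of -1.92 and an adjusted p of 0.0406, against 0.101 without the block. Over all genes with a symbol, 24 passed as lower and 4 as higher with the block. The other bright targets did not pass: the thyroid hormone-binding protein gene Crym at -0.31 ± 0.15, and Wnt4, the inducer of the epithelial transition, at 0.24 ± 0.11 (SE). Gdnf, the branching signal, was singled out after its value was seen and was at 0.24 ± 0.12 (adjusted p = 0.839). Larger differences that did not pass were found for Lhx1 at -1.12 ± 0.29, Tmem100 at -1.09 ± 0.16 and Myc at -0.69 ± 0.21. Fgf20 was higher, at 0.64 ± 0.23 (SE, limma adjusted p = 0.462, 0.174, 0.573 and 0.694 in that order). Of 11 targets known from muscle and other tissues, 7 were measured and none passed, with a median of -0.04. Among the brightest were the glycolytic enzyme gene Aldoa at -0.08 ± 0.12 and the cyclin Ccnd1 at -0.41 ± 0.12.

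**Figure D5:**
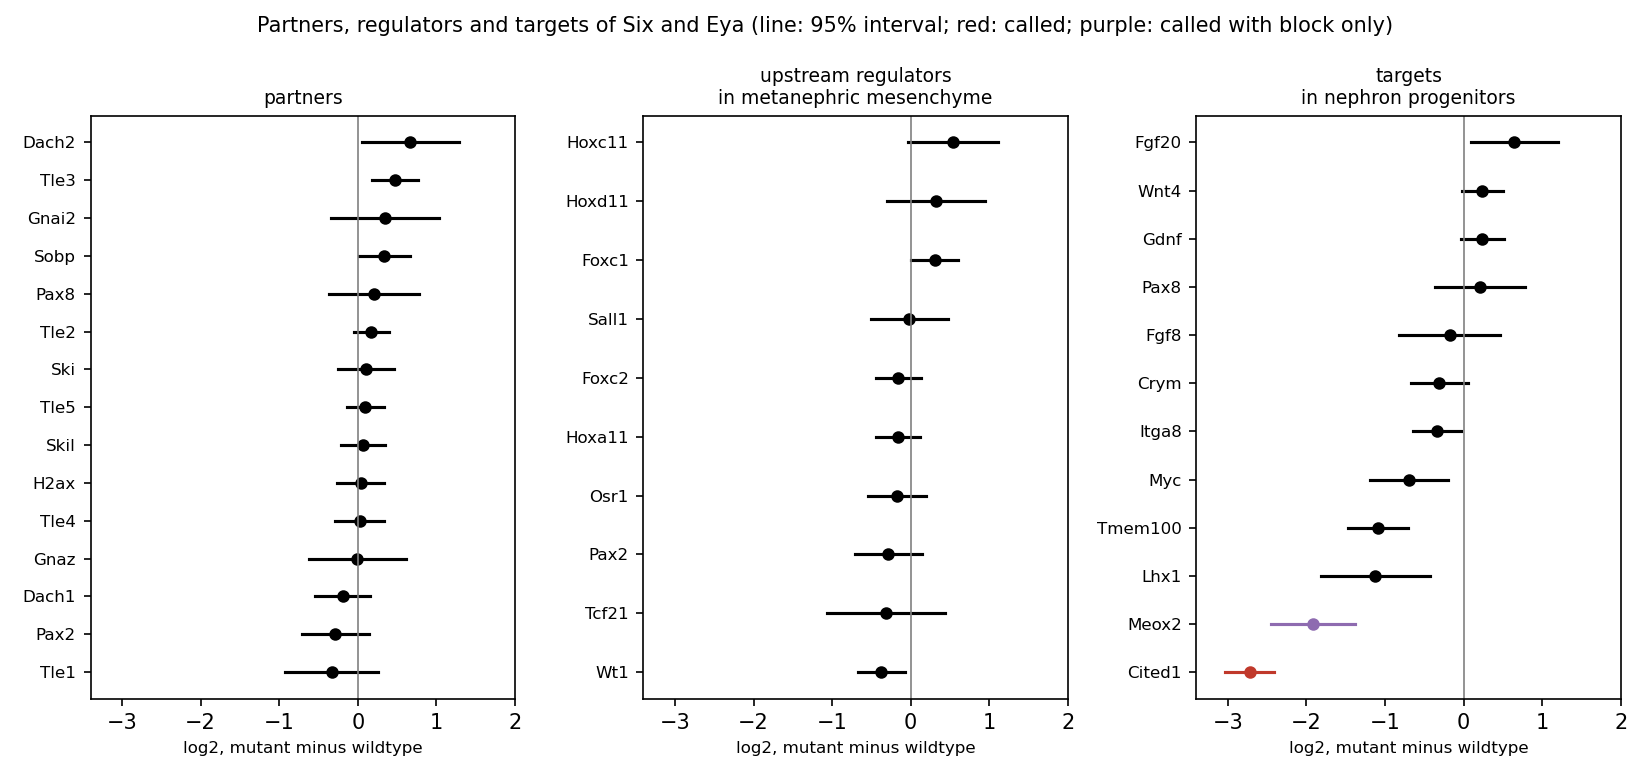
Log2 difference, mutant minus wildtype, with its 95% interval, of the measured partners, upstream regulators and nephron progenitor targets (brightest probe per gene, 1 panel per list). Only Cited1 passed the threshold, and Meox2 did so with pool number as a block.

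Cited1 was set directly against the factors that maintain the same cells within each sample. A shift shared by all probes of an array drops out there. Loess normalization varies with brightness, so it need not drop out between probes of unlike level. With median centring in place of loess, the Eya4 difference was -0.47 and that of Eya1 0.17, against -0.51 and 0.05. Cited1 minus the brighter Six2 probe was -2.72, -2.80 and -2.63 in the mutant samples and -0.07, -0.50 and 0.19 in the wildtype samples. The groups lay far apart, so that Cited1 relative to Six2 was 6.03-fold lower in mutant samples, and relative to Eya1 6.82-fold lower. Meox2 relative to Six2 was 3.44-fold lower. Within the Eya family, Eya4 relative to Eya1 was lower by a difference of -0.56, and relative to Eya3 by -0.65. Each of these 5 comparisons had an exact permutation p of 0.1, the smallest possible, and the pairs of genes were chosen after their values were seen.

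Markers of other cell types were read on the same arrays, and apart from Cited1 none of the markers listed passed the test without the block. All 6 stroma markers had higher means in the mutants, with a median of 0.33. Summed levels are the Cy5 levels of a list, quantile-normalized, added up on each of the 4 arrays of a group and taken to log2. For stroma they were 17.61 to 17.85 on mutant arrays and 17.40 to 17.55 on wildtype arrays. Of 7 ureteric bud markers 6 had higher means (median 0.30, summed levels 15.70 to 16.12 on mutant and 15.54 to 15.80 on wildtype arrays). Of 6 endothelial markers 4 had higher means (median 0.26, 15.53 to 16.06 on mutant and 15.29 to 15.65 on wildtype arrays). Lower means were found for all 4 proximal tubule markers (median -1.38, 10.53 to 12.67 on mutant and 12.06 to 14.14 on wildtype arrays). They were also found for all 5 podocyte markers (median -0.61, 10.41 to 11.11 on mutant and 10.54 to 12.58 on wildtype arrays). Summed levels of the groups overlapped for all of these but stroma, and for all genes with a symbol (26.52 to 26.56 on mutant and 26.46 to 26.53 on wildtype arrays). Those of cap mesenchyme, a list that holds Cited1, Six2 and Eya1, and of skeletal muscle, given below, did not overlap either. The same held for upstream regulators (15.66 to 15.81 on mutant and 15.83 to 15.95 on wildtype arrays). It also held for nephron progenitor targets, a list that holds Cited1 too (15.86 to 16.02 on mutant and 16.44 to 16.63 on wildtype arrays). Sums overlapped for partners, targets known from muscle and other tissues, renal vesicle, macrophage and erythroid markers. How often the sums of lists drawn from all genes lie apart was not computed. Of the 14 cap mesenchyme markers 12 had lower and 2 higher means, with a median of -0.32. Their summed levels were 16.79 to 16.99 on mutant arrays and 17.31 to 17.37 on wildtype arrays, and no sum without Cited1 was computed. The 8 renal vesicle markers had a median of -0.29. Macrophage and erythroid markers, 4 measured of each, had medians of -0.00036 and 0.04. Of 5 skeletal muscle markers Acta1, Myh3 and Myog were measured (median -0.30, summed levels 8.46 to 8.75 on mutant and 8.84 to 9.14 on wildtype arrays). All were dim, with mean Cy5 levels of 7.46, 7.11 and 6.58 on the log2 scale. Myog was well above background in Cy5 on only 5 of the 8 arrays. Myod1 and Ckm did not pass the filter on dim probes. The part of these other cells in the Six-Eya values was not tested.

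The genes most like Six2 and Eya1 were sought by the root mean square difference over the 6 samples, after centring each of 14812 genes on its own mean. Nearest to the brighter Six2 probe were Tuba3a (0.0239), Esm1 (0.0318) and Nkx2-6 (0.0440). Nearest to Eya1 were Zcchc9 (0.0131), Hemgn (0.0137) and Ap2a1 (0.0174). With so many genes and 6 samples, close profiles arise readily, and the samples share their Cy3 RNA.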

How the data were processed

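RNA of 4 mutant and 4 wildtype pools was hybridised in Cy5 to 8 two-colour Agilent arrays, with wildtype pool 1 in Cy3. The deposited scanner files hold spot intensity on a linear scale, read out by Agilent Feature Extraction (10.7.3.1 in the submitters' processing notes and, per the file headers, in the files). A value table the authors deposited holds log10 ratios of Cy5 over Cy3, background-subtracted and dye-normalized by that software. Its columns matched the scanner log ratios (correlations of at least 0.999999, largest difference 0.00498), so scale and direction were settled. Column medians were 0 on 7 arrays and 0.00483 on wildtype 2.

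Median spot signals, as deposited by the authors, were background-corrected (limma 3.58.1 in R 4.3.3, normexp, offset 50), normalized by loess within arrays and taken to log2. Control and outlier spots had weight 0. Channel levels were also quantile-normalized for the SDs by dye, the flagged levels, the summed marker levels and Cy5 alone. That step gives every array the same distribution of levels. Probes well above background in Cy5 on 3 of 4 arrays of a group were kept, 30364 of 55681. Accessions matched to RefSeq (GRCm38.p6) named 27509 probes. That table gave names only. Groups were compared with lmFit and eBayes (two-sided), Benjamini-Hochberg over all probes kept, threshold 0.05. The fit was tested on simulated data. Each group had 3 samples, and what limits the precision was not tested.

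In 5798 probes of middling level, Cy5 of pools 3 and 4 differed by a median absolute deviation of 0.0604 in mutants and 0.0565 in wildtypes, within the 0.0455 to 0.0784 of Cy3 over the 21 pairs of arrays without wildtype 2 (up to 0.0999 with it), so they were counted as 1 sample. Deviations of same-numbered samples correlated with r = 0.516, 0.523 and 0.507. Equal numbers were therefore treated as pairs in the pair differences and in the fit with the replicate block. That choice rests on the data and on no label. The main fit left the pairing out. The correlations between different numbers, -0.470 to -0.112, are partly forced, since deviations cancel within a group.

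Members and lists were chosen with earlier results of these data known. Named are every member probe, Hdac1 and Hdac2, of each partner, regulator and target list the genes called with or without the block and the 3 brightest, and the 3 genes nearest to Six2 and to Eya1. A gene of several probes is given by its brightest. One gene that this rule names is not reported here. Alternatives were blocks, left-out pools, other background corrections, normalizations, filters and variance models, and the deposited table.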

Additional observations from a re-analysis of the deposited data

Results flagged for a closer look

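Cy3 held the same RNA on all 8 arrays, and its levels are given after quantile normalization across arrays. On the wildtype 2 array the Six4 level was 9.12 on the log2 scale, with 9.63 to 9.82 on the others. The gap to the nearest array was 0.727 of the whole range, above Dixon's 95% critical value for 8 values. The Six5 level of the same array was 11.3, with 11.51 to 11.64 on the others (0.596 of the range). For Eya4 the gap of that array was 0.521 of the range, just under the critical value. Before normalization, the raw Cy5 signal of Six4 was highest on that array, at 1590, while its normalized Cy5 level there was 9.35. Whether the low levels come from the quantile step was not tested. Chance alone marks about 5% of such groups, and 8 probes were examined. Without the wildtype 2 array the Six4 difference, mutant minus wildtype, was -0.36 and the Six5 difference -0.07.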

How the results depend on the processing

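No Six-Eya probe passed the threshold under any of the 27 alternatives. The Eya4 difference ranged from -0.69 to -0.39 over them, with adjusted p from 0.0713 to 0.988. The count over all probes, 8, was 35 with the replicate block, 254 with 8 arrays as separate samples, 4 with spike-in centring, with the filter on all 8 arrays and with a trended, robust variance, 1 with Cy5 alone and 117 with array weights. With the replicate block and a pair left out it was 5 (pool 1), 16 (pool 2) and 2 (pools 3 and 4), and with 1 array or merged sample left out it ranged from 0, without wildtype pool 1, to 10, without mutant pool 2. It was 3 without wildtype pool 2 and 1 without pools 3 and 4 of either group. Among partners, regulators and targets the 1 call, Cited1, became 2 with the replicate block, also without the pool 1 or pool 2 pair, 3 with 8 arrays or array weights and 0 with the trended, robust variance (adjusted p = 0.764), and 0 to 2 with an array left out. Cited1 lost its call without wildtype pool 1 (adjusted p = 0.0590). The replicate block changed no call of a Six-Eya probe. The median difference of the 8 probes, -0.15, was -0.049 with median centring and -0.32 with spike-in centring, where the medians of all probes were 0.0654 and -0.18. Spike-in centring turned Eya1 to -0.13 and Eya3 to -0.042. Eya3 was also -0.019 with array weights and -0.0044 with the replicate block without the pool 1 pair, and -0.031 to 0.23 with an array or sample left out. The cause of these shifts was not tested. Scaling between arrays (Aquantile) leaves ratios as they are by construction. All 8 probes were well above background, and what limits the width of their intervals was not tested.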
